A study of Homo sapiens with 12 samples.

Results

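Solute carrier (SLC) genes encode the membrane proteins that move amino acids, sugars, ions, metals, vitamins and metabolites into and out of the cell and its organelles. The genes described here were the protein-coding genes of the table whose symbol starts with SLC, a number and the letter A and whose mean level over the 12 libraries was at least 10 CPM. CPM is the number of UMIs (unique molecular identifiers, 1 per captured RNA molecule) per 1000000 UMIs of protein-coding genes. The levels given for single libraries are CPM on library totals scaled by edgeR's TMM factors, which lay between 0.955 and 1.04, while the limit used the unscaled totals. There were 110 such genes of 291 SLC genes in the table and of 15871 protein-coding genes in all. The other 181 SLC genes lay under the limit. The 110 held 0.823% of the protein-coding UMIs. The genes were chosen by their mean level over all libraries and not by their change with time. Their levels are therefore a description, while the changes with time were tested. Of the 110 genes, 90 were at 10 CPM or more at every time, 7 were under it at 0 h and 5 were under it at 96 h. The symbol rule also took 3 genes that are not transporters: SLC9A3R1, a scaffold protein, SLC4A1AP and SLC2A4RG. It does not take families whose symbols carry another letter, such as SLC35B or SLCO.

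Most SLC proteins are passive carriers, exchangers or transporters coupled to the sodium or proton gradient, and their substrates set their place in metabolism. SLC7A11 with the heavy chain SLC3A2 forms system xc-, which takes up cystine for glutathione in exchange for glutamate. SLC2A1 (GLUT1) is the basal glucose transporter of most cells. Most SLC25A genes encode carriers of the inner mitochondrial membrane. The class of mitochondrial carriers below holds all SLC25A genes of the set, SLC25A17 and SLC25A46 included, whatever their membrane.

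The samples were A549 cells, an established human lung carcinoma line of epithelial origin, grown in 10% serum and exposed to 4 ng/mL TGFβ, a ligand that drives epithelial cells towards a mesenchymal state. Treated cells were taken at 5 times, 0.5 h, 12 h, 24 h, 48 h and last 96 h, and compared with untreated cells (0 h), with 2 libraries at each time. Live cells were sorted singly into 384-well plates and read by CEL-Seq2, which tags the 3′ end of polyadenylated RNA. The labels call the libraries of a time replicates and do not say that they came from different cultures. Each p-value rests on the spread between libraries of a time, pooled over all times and moderated across genes. That spread need not hold any difference between cultures. The cells seeded for all times were 1 line, and the medium with TGFβ was replaced every other day. No untreated cells of the later times are among the samples, so time in culture and time in TGFβ cannot be told apart.

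After the limits on wells, 1871 cells remained, 54 to 217 in each library. The sums of protein-coding UMIs ranged from 1264044 to 4500036 per library, where 1 UMI in the smallest is worth 0.791 CPM. The fewest cells were at 96 h (54 and 64, against 181 and 166 at 0 h). The median share of mitochondrial UMIs per cell was 20.6% and 21.1% at 96 h, against 25.0% and 23.6% at 0 h. What part these differences had in the results was not tested. The summed level of 6 epithelial markers of A549 lay between 4240 and 8250 CPM at all times. KRT7 was its most abundant member, with a mean of 3184 CPM at 96 h and 2392 CPM at 0 h. The means at 96 h and 0 h were 0.666 and 35.9 CPM for CDH1, 4.61 and 51.99 CPM for KRT19, 460.4 and 1424 CPM for KRT18, 608 and 1134 CPM for KRT8 and 1.05 and 3.77 CPM for EPCAM, and their part in the results was not tested. The sum of 6 fibroblast markers was at most 7.001 CPM, that of 5 endothelial markers at most 0.666 CPM, and that of 6 immune markers at most 9.27 CPM, with PTPRC at 0. The 384 cell barcodes of replicate 1 and the 384 of replicate 2 shared 0 sequences. Each barcode set held 1 library of each time, which allows no test within a set.

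Genes were tested with edgeR's quasi-likelihood test over 10465 genes, and a change passed where the p adjusted by Benjamini-Hochberg over these genes was under 0.05. Each log2 change is given ± its standard error, with 2 libraries at each time, and calls were checked with each library left out in turn. Against 0 h, 0 of the 110 genes passed at 0.5 h, where 0.44% of all genes tested passed, 1 had an unadjusted p under 0.05 and DESeq2 called 0. At 12 h 21 passed, 16 higher and 5 lower, where 14.3% of all genes passed (8.46% higher and 5.83% lower). At 24 h 18 passed, 10 higher and 8 lower, beside 13.2% of all genes (7.62% and 5.56%). These shares of the SLC genes (19.1% and 16.4%) were near those of all genes at 10 CPM or more (16.4% and 14.7%). At 48 h 30 passed, 15 in each direction. This was 27.3% of the SLC genes, beside 18.5% of all genes, of which 10.0% higher and 8.48% lower, and 20.1% of those at 10 CPM or more. At 96 h 34 passed, 21 higher and 13 lower, and 3 of the 21 (SLC4A4, SLC16A3 and SLC22A17) reached the limit of 10 CPM only through 96 h. This was 30.9% of the SLC genes, beside 23.7% of all genes, of which 12.5% higher and 11.1% lower, and 25.9% of those at 10 CPM or more. The libraries of both times did not overlap for any gene that passed. The libraries also lay apart for many genes that did not pass, at 0.5 h too. With 2 libraries against 2 this is frequent without any change, and the share over all genes tested was not counted. Lying apart is therefore given as a description and not as support for a change. The median log2 change of the 110 genes was -0.17 at 48 h and -0.03 at 96 h, against 0.03 and 0.02 for all genes tested. The SLC genes thus moved in both directions around a centre near 0.

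Between neighbouring times, 0 SLC genes passed from 12 to 24 h, where 0.0% of all genes did, 10 had an unadjusted p under 0.05 and DESeq2 called 0. From 24 to 48 h 15 passed, 7 higher and 8 lower (5.24% of all genes passed, 2.61% higher and 2.63% lower). From 48 to 96 h 3 passed, all higher (1.21% of all genes, 0.803% higher and 0.411% lower). Over all times together 48 of the 110 passed, beside 28.2% of all genes tested and 30.7% of those at 10 CPM or more. Single libraries moved some of these counts. At 12 h 12, 11 and 13 genes passed without 0 h replicate 1, without 0 h replicate 2 and without 12 h replicate 2. At 48 h 18 passed without 0 h replicate 1, and at 96 h 17 passed without 96 h replicate 2. From 24 to 48 h 5 passed without 24 h replicate 1 and 8 without 48 h replicate 2. From 48 to 96 h 1 passed without 48 h replicate 1, 0 without 96 h replicate 1 and 1 without 96 h replicate 2. With stricter limits on wells, which left 6 to 58 cells in a library and 61 of the genes testable, 3, 2, 5 and 8 genes passed against 0 h at 12, 24, 48 and 96 h. In that setting 36 of the 52 changes called for a named gene that could be recomputed were not called.

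**Figure D1:**
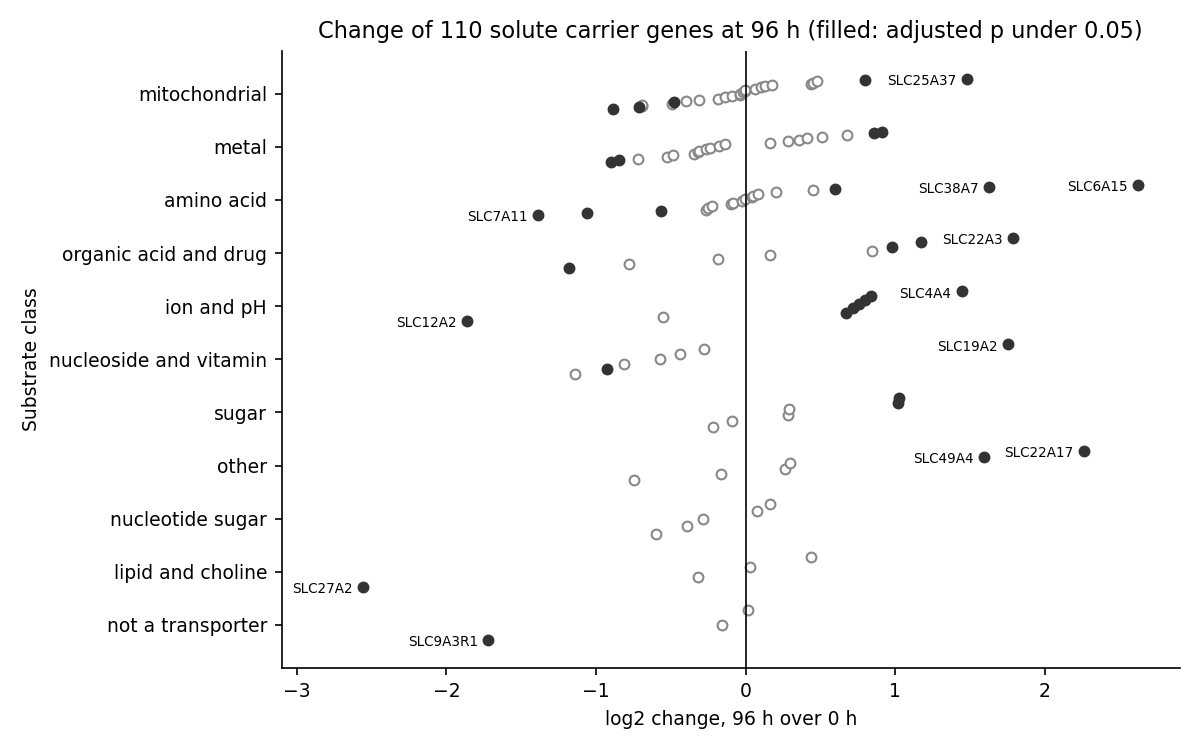
The log2 change of each of the 110 SLC genes at 96 h over 0 h (horizontal axis), 1 point a gene, in rows by substrate class, with filled points for the 34 genes past an edgeR adjusted p of 0.05 and names for those beyond 1.3. The largest rises were those of SLC6A15 (2.62) and SLC22A17 (2.26) and the largest falls those of SLC27A2 (-2.56) and SLC12A2 (-1.86). SLC22A17 reached the limit of 10 CPM only through 96 h.

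By time, 6 genes were higher at 12 or 24 h and not called later, 10 were higher both at 12 or 24 h and at 48 or 96 h, and 13 were higher at 48 or 96 h alone. On the other side 1 was lower at 12 or 24 h alone, 8 were lower both early and late, and 13 were lower late alone. SLC4A4 was lower at 24 h and higher at 96 h. The remaining 58 were not called against 0 h at any time. These patterns were not counted over all genes tested, where calls also became more frequent (14.3% of genes after 12 h and 23.7% after 96 h). Whether SLC genes differ from other genes in their patterns was therefore not tested. The test over all times was passed by 12 of 18 amino acid transporters, 6 of 8 ion and pH transporters, 5 of 8 organic acid and drug transporters and 3 of 4 lipid and choline transporters. It was passed by 3 of 7 nucleoside and vitamin transporters, 8 of 20 metal transporters, 2 of 6 sugar transporters, 6 of 25 mitochondrial carriers and 0 of 5 nucleotide sugar transporters. Over all genes tested 28.2% passed it, and 30.7% of those at 10 CPM or more. The difference of the classes from these shares and from each other was not tested.

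**Figure D2:**
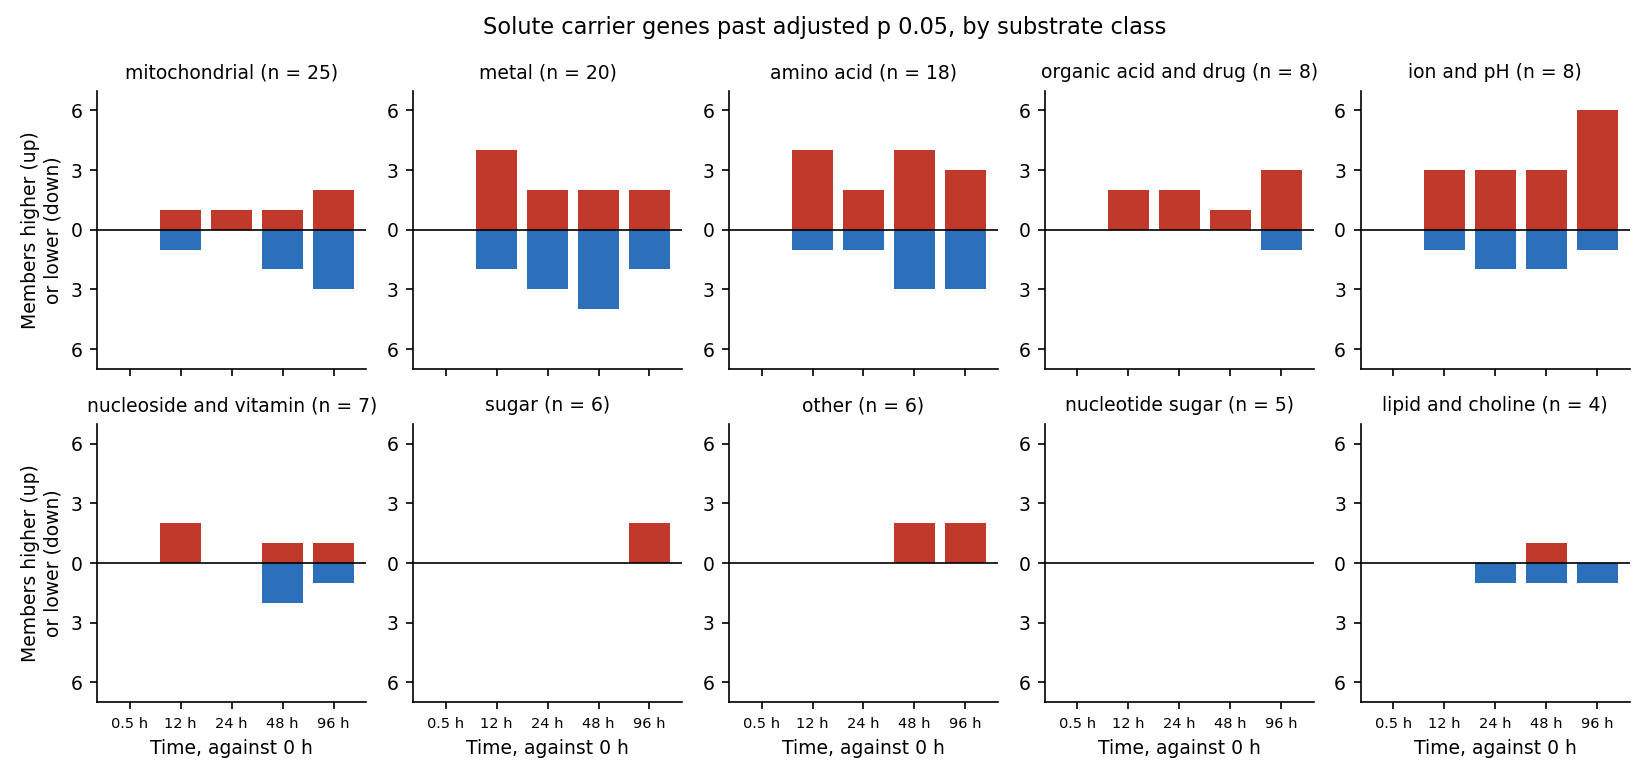
The number of SLC genes of each substrate class past an edgeR adjusted p of 0.05 against 0 h at each time in TGFβ (horizontal axis), with higher genes as bars up and lower genes as bars down. The ion and pH class had 6 of 8 genes higher and 1 lower at 96 h, while mitochondrial carriers had 2 higher and 3 lower of 25 and nucleotide sugar transporters none at any time. Of all genes tested, 12.5% were higher and 11.1% lower at 96 h. Among the 6, SLC4A4 reached the limit of 10 CPM only through 96 h. The 96 h calls of SLC4A7, SLC26A2, SLC20A1 and SLC9A7 were each lost with some single library left out.

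Among amino acid transporters, the cystine transporter fell late while its heavy chain passed at no single time. SLC7A11 (ENSG00000151012, chr4:138164097-138242349, GRCh38) had 283 and 258 CPM at 0 h, 245 and 273 after 0.5 h and 245 and 250.1 after 12 h of TGFβ. Later, SLC7A11 had 253 and 273 CPM after 24 h, 132 and 132 after 48 h and 97.2 and 109 after 96 h. It passed at no time through 24 h and was lower by more than the spread of the libraries at 48 h (log2 change -1.03 ± 0.14, edgeR adjusted p = 7.35e-06) and 96 h (log2 change -1.39 ± 0.15, edgeR adjusted p = 1.78e-07). The step from 24 to 48 h was itself past the threshold (log2 change -0.99 ± 0.14, edgeR adjusted p = 8.43e-05). It was not called with stricter limits on wells (log2 change -0.77, edgeR adjusted p = 0.229). SLC3A2 had 590.4 and 576 CPM at 96 h and 732 and 659 at 0 h, with its highest mean at 12 h (901 ± 49.3 CPM, SD, n = 2). It passed over all times together (edgeR adjusted p = 0.0472) and not against 0 h, with log2 change 0.37 ± 0.16, edgeR adjusted p = 0.124 at 12 h. An opposite-strand gene covers 10.9% of the last exon of SLC7A11. Since the sources used here do not give the strand setting of the counting, reads of the pair could not be separated with certainty.

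The other light chains that pair with SLC3A2 took courses of their own. SLC7A5 (LAT1), the exchanger of large neutral amino acids, had 152 and 155 CPM after 12 h, 143 and 135 after 48 h and 78.6 and 97.2 after 96 h, against 99.9 and 70.6 at 0 h. It was higher at 12 h (log2 change 0.85 ± 0.17, edgeR adjusted p = 0.00105) and 48 h (log2 change 0.71 ± 0.18, edgeR adjusted p = 0.00512), and its value at 96 h lay within the range of 0 h. Both calls were lost without 0 h replicate 2 (log2 change 0.61, adjusted p = 0.055 at 12 h and log2 change 0.45, adjusted p = 0.15 at 48 h). With stricter limits on wells the 12 h value turned round (log2 change -0.35, adjusted p = 0.756). SLC7A7 (y+LAT1), which exports cationic amino acids in exchange for neutral ones, had 16.1 and 15.99 CPM at 48 h and 13.2 and 21.97 CPM at 96 h, against 35.3 and 39.1 at 0 h. It was lower at 48 h (log2 change -1.21 ± 0.25, edgeR adjusted p = 0.000766) and 96 h (log2 change -1.06 ± 0.27, edgeR adjusted p = 0.00508). The 96 h call was lost without 96 h replicate 1 (log2 change -0.77, adjusted p = 0.114). Like SLC7A11, it fell between 24 and 48 h (log2 change -1.45 ± 0.24, edgeR adjusted p = 0.0005). With stricter limits on wells the SLC7A7 step was close to nothing (log2 change -0.065, edgeR adjusted p = 0.986). SLC7A6 (y+LAT2) had 24.96 and 28.4 CPM at 12 h and 16.4 and 10.7 at 0 h (log2 change 0.97 ± 0.26, edgeR adjusted p = 0.0109), a call lost without 0 h replicate 2 or 12 h replicate 2 (log2 change between 0.69 and 0.90, adjusted p between 0.077 and 0.18), and a gene on the opposite strand covers 73.5% of its last exon.

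**Figure D3:**
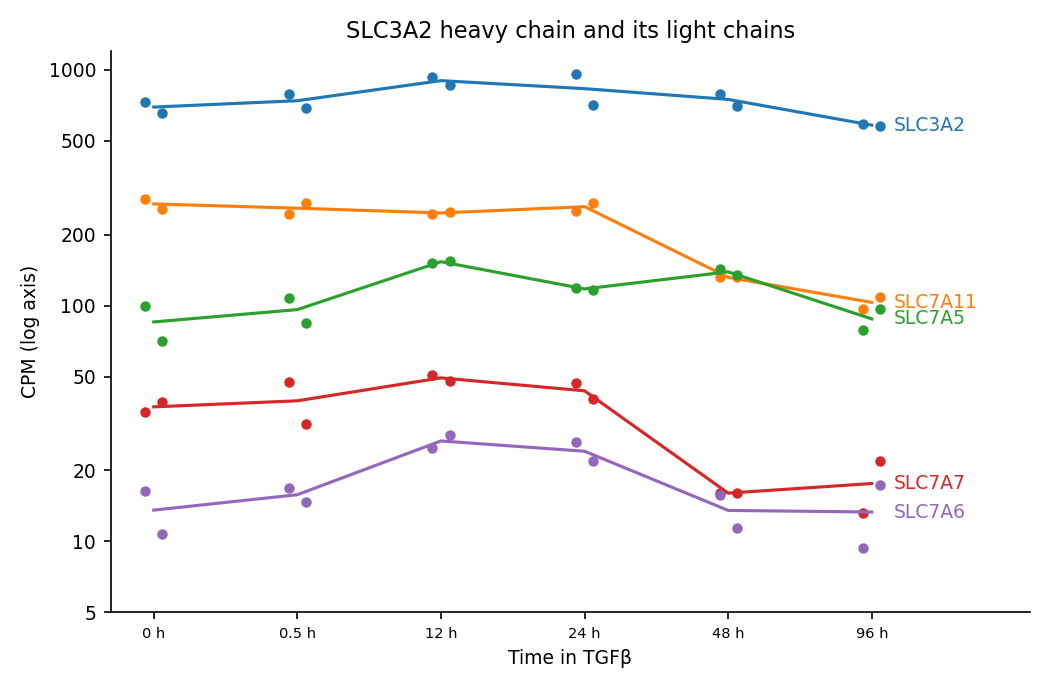
CPM on a log axis (vertical) against time in TGFβ (horizontal) for the heavy chain SLC3A2 and 4 light chains, with 1 point per library and a line through the mean of the 2 libraries. SLC7A11 and SLC7A7 lie lower at 48 and 96 h than at all earlier times, while the 12 values of SLC3A2 stay between 576 and 957 CPM.

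The cationic amino acid importer SLC7A1 (CAT1, chr13:29509414-29595688) rose early. It had 49.6 and 45.7 CPM at 0 h, 58.6 and 58.7 after 0.5 h and 149 and 119 after 12 h of TGFβ. Later, SLC7A1 had 121 and 91.5 CPM after 24 h, 79.9 and 64.5 after 48 h and 73.9 and 70.6 after 96 h. Its mean was highest at 12 h, and every later library was above both of 0 h (log2 change 1.49 ± 0.18, edgeR adjusted p = 1.17e-06 at 12 h and log2 change 0.60 ± 0.20, edgeR adjusted p = 0.0276 at 96 h). The 96 h call was lost without 0 h replicate 1, 0 h replicate 2, 96 h replicate 1 or 96 h replicate 2 (log2 change between 0.51 and 0.65, adjusted p between 0.0788 and 0.147) and with DESeq2 (adjusted p = 0.0648). The promoter windows of SLC7A1 and of SLC3A2 both hold the letters of the C/EBP-ATF response element TGATGNAA, the site of the amino acid response factor ATF4. They are shown because the transcripts with this shared match took different courses. They are the RefSeq windows (GRCh38.p14) of 250 bases before and 50 after the annotated start, chr13:29595639-29595938 on the minus strand and chr11:62881449-62881748 on the plus strand, written 5′ to 3′ on the gene's strand, with the match in capitals.
SLC7A1: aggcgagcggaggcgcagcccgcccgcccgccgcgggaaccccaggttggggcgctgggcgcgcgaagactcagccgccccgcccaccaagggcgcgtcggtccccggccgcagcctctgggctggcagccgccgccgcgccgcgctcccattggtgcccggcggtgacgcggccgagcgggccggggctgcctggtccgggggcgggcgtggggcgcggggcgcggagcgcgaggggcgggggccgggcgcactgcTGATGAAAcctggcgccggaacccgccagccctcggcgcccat
SLC3A2: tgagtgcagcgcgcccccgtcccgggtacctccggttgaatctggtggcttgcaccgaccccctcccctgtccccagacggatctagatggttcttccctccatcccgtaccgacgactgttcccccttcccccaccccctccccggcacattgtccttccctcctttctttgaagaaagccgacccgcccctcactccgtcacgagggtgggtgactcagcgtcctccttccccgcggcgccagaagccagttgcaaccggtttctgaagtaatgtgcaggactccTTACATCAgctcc
The match starts at base 8 after the start site in SLC7A1 and, on the other strand, at base 38 in SLC3A2. It was found in 6 of the 94 SLC genes with a RefSeq window (6.38%) and in 3.62% of all 35116 windows, searching both strands. A match of letters is a description of the window and was not tested as a site. Of 15 tested genes of a list of ATF4 targets and related genes, 1 was higher and 1 lower at 12 h (median log2 change 0.11), beside 14.3% of all genes called. At 96 h 4 were higher and 1 was lower (median 0.25), beside 23.7% of all genes. ATF4 itself had 217.8 and 223.0 CPM at 96 h and 155.0 and 207.3 CPM at 0 h (log2 change 0.28 ± 0.16, edgeR adjusted p = 0.217).

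The largest rise of all 110 genes at 96 h was that of SLC6A15 (B0AT2), a sodium-coupled importer of neutral, mainly branched-chain amino acids. It had 7.39 and 7.24 CPM at 0 h, 6.61 and 8.13 after 0.5 h and 13.5 and 8.14 after 12 h of TGFβ. Later, SLC6A15 had 13.8 and 8.52 CPM after 24 h, 27.8 and 31.98 after 48 h and 39.7 and 50.6 after 96 h. The libraries of 48 and 96 h were above all of the earlier ones (log2 change 2.01 ± 0.29, edgeR adjusted p = 1.33e-05 at 48 h and log2 change 2.62 ± 0.30, edgeR adjusted p = 2.75e-07 at 96 h). Most of the SLC6A15 libraries up to 24 h were under 10 CPM. Its place among the 110 genes thus leans on 48 and 96 h, and its rise there is part of why it was chosen. Its step from 24 to 48 h (log2 change 1.36 ± 0.28, edgeR adjusted p = 0.00309) was not called without 24 h replicate 2 (log2 change 1.07, adjusted p = 0.0578). SLC38A7, a lysosomal exporter of glutamine, had 22.6 and 21.97 CPM at 96 h and 6.57 and 7.82 at 0 h (log2 change 1.63 ± 0.32, edgeR adjusted p = 0.000531).

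Of other transporters of neutral amino acids, SLC1A5 was lower at 96 h and SLC38A1 at 48 h, and SLC38A2 passed against 0 h at no time. SLC1A5 (ASCT2), a glutamine exchanger, had 246 and 261 CPM at 24 h and 128 and 136 CPM at 96 h, against 182 and 209 at 0 h. Its fall at 96 h (log2 change -0.57 ± 0.16, edgeR adjusted p = 0.0132) was lost without 0 h replicate 2, 96 h replicate 1 or 96 h replicate 2 (log2 change between -0.63 and -0.49, adjusted p between 0.0627 and 0.107). The related SLC1A4 (ASCT1) had 13.04 and 10.3 CPM at 48 h and 32.1 and 26.7 at 24 h (log2 change -1.32 ± 0.27, edgeR adjusted p = 0.00404), a step not called without 24 h replicate 1 (log2 change -1.17, adjusted p = 0.0598). SLC38A1 (SNAT1), a sodium-coupled glutamine importer, had 160.2 and 123 CPM at 48 h and 206 and 199 at 0 h (log2 change -0.51 ± 0.15, edgeR adjusted p = 0.0178). The SLC38A1 call at 48 h was lost without 0 h replicate 1 or 48 h replicate 2 (log2 change between -0.49 and -0.34, adjusted p between 0.0892 and 0.252). Its libraries at 96 h had 209 and 208 CPM and did not pass (log2 change 0.04 ± 0.15, edgeR adjusted p = 0.874). SLC38A2 (SNAT2), which amino acid shortage is known to induce, had 219 and 149 CPM at 96 h and 216 and 158 at 0 h, and the libraries of these times overlapped (log2 change -0.03 ± 0.17, edgeR adjusted p = 0.934). SLC38A6 was lower at 12 h, with 38.7 and 35.7 CPM, against 72.01 and 45.7 at 0 h (log2 change -0.66 ± 0.20, edgeR adjusted p = 0.0264). That call was lost without 0 h replicate 1, 12 h replicate 1 or 12 h replicate 2 (log2 change between -0.72 and -0.30, adjusted p between 0.0942 and 0.496) and with DESeq2 (adjusted p = 0.0709).

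Several genes of glutathione synthesis and of the antioxidant programme that, like SLC7A11, are known targets of NRF2 were already lower at 12 h, when SLC7A11 did not pass. They belong to a hand-written list of cystine and glutathione genes, which is not a list of NRF2 targets alone. It also holds CHAC1, a gene of the ATF4 list. Of 11 tested genes of the cystine and glutathione list, SLC7A11 not counted, 0 were higher and 6 lower at 12 h (median log2 change -0.53), beside 8.46% of all genes higher and 5.83% lower. At 96 h 1 was higher and 7 lower (median -1.29, against 0.02 for all genes tested), beside 12.5% of all genes higher and 11.1% lower. GCLC, the catalytic subunit of glutamate-cysteine ligase, had 36.7 and 40.5 CPM at 12 h and 26.4 and 27.96 CPM at 96 h, against 175.8 and 148.8 CPM at 0 h. GCLC was lower at 12 h (log2 change -2.07 ± 0.17, edgeR adjusted p = 2.14e-09) and at 96 h (log2 change -2.57 ± 0.20, edgeR adjusted p = 4.35e-10). SLC7A11 stood at 12 h at 245 and 250.1 CPM, against 283 and 258 at 0 h (log2 change -0.13 ± 0.14, edgeR adjusted p = 0.618), and its difference from the list was not tested. HMOX1, heme oxygenase, was the member that rose at 96 h (log2 change 1.17 ± 0.18, edgeR adjusted p = 1.9e-05). 

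In the ion and pH class, a chloride importer was lower at 96 h and the 6 other called genes were higher. Of these, SLC4A4 reached the limit of 10 CPM only through 96 h. SLC12A2 (NKCC1, chr5:128083766-128189677), the sodium, potassium and chloride cotransporter that loads epithelial cells with chloride, had 211 and 255 CPM at 0 h, 211 and 214 after 0.5 h and 137 and 132 after 12 h of TGFβ. Later, SLC12A2 had 99.5 and 103 CPM after 24 h, 46.1 and 46.9 after 48 h and 63.01 and 65.2 after 96 h. Every library from 12 h on was below all 4 of 0 and 0.5 h (log2 change -0.79 ± 0.14, edgeR adjusted p = 0.000323 at 12 h, log2 change -2.32 ± 0.16, edgeR adjusted p = 7.76e-11 at 48 h and log2 change -1.86 ± 0.16, edgeR adjusted p = 4.59e-09 at 96 h). The bicarbonate importer SLC4A7 (NBCn1) had 153 and 154 CPM at 24 h and 87.1 and 127 at 96 h, against 56.95 and 63.4 at 0 h. Its rise passed at 24 h (log2 change 1.35 ± 0.18, edgeR adjusted p = 7.51e-06) and at 96 h (log2 change 0.84 ± 0.19, edgeR adjusted p = 0.00232). SLC26A2, the sulfate transporter that feeds the sulfation of cartilage proteoglycans, had 135 and 163 CPM at 24 h and 79.3 and 93.2 at 96 h, against 48.5 and 51.2 at 0 h. It was higher at 24 h (log2 change 1.57 ± 0.17, edgeR adjusted p = 2.99e-07) and at 96 h (log2 change 0.79 ± 0.19, edgeR adjusted p = 0.00258). The 96 h call was lost without 96 h replicate 2 (log2 change 0.52, adjusted p = 0.157) for SLC4A7 and without 96 h replicate 2 (log2 change 0.66, adjusted p = 0.0699) for SLC26A2. Both had their highest mean at 24 h, and all 8 libraries from 12 h on exceeded both libraries of 0 h in each gene.

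SLC4A4 (NBCe1), another sodium bicarbonate cotransporter, was the only one of the 110 genes called in both directions against 0 h. It had 10.4 and 9.84 CPM at 0 h, 6.91 and 7.87 after 0.5 h and 7.39 and 5.78 after 12 h of TGFβ. Later, SLC4A4 had 2.75 and 4.45 CPM after 24 h, 9.697 and 8.25 after 48 h and 27.2 and 27.96 after 96 h. It was lower at 24 h (log2 change -1.54 ± 0.35, edgeR adjusted p = 0.00279) and higher at 96 h (log2 change 1.44 ± 0.29, edgeR adjusted p = 0.000608). Without its 96 h libraries SLC4A4 averaged 7.304 CPM, so it was under the limit at the other times together, and its rise at 96 h is part of why it was chosen. The 24 h call was lost without 24 h replicate 1 (log2 change -1.18, adjusted p = 0.112) and with library sums thinned to the smallest (adjusted p = 0.218), while the 96 h libraries stood above all 10 others. SLC20A1 (PiT1), a sodium-coupled phosphate importer, had 149 and 147 CPM at 96 h and 104 and 82.2 at 0 h (log2 change 0.67 ± 0.17, edgeR adjusted p = 0.00423). The SLC20A1 call at 96 h was lost without 0 h replicate 2 (log2 change 0.48, adjusted p = 0.0914). Its relative SLC20A2 was lower at 48 h, with 9.36 and 6.71 CPM, against 15.9 and 15.6 at 0 h (log2 change -0.93 ± 0.29, edgeR adjusted p = 0.0257). The SLC20A2 call at 48 h was lost without 0 h replicate 1, 0 h replicate 2 or 48 h replicate 2 (log2 change between -0.98 and -0.75, adjusted p between 0.066 and 0.171) and with DESeq2 (adjusted p = 0.0923). SLC9A7, a sodium and proton exchanger of the Golgi, had 26.4 and 21.3 CPM at 96 h and 16.7 and 11.3 at 0 h (log2 change 0.76 ± 0.27, edgeR adjusted p = 0.0466). The SLC9A7 call at 96 h was lost without 0 h replicate 2, 0.5 h replicate 1, 0.5 h replicate 2, 12 h replicate 1, 12 h replicate 2, 24 h replicate 1, 24 h replicate 2, 96 h replicate 1 or 96 h replicate 2 (log2 change between 0.48 and 0.90, adjusted p between 0.0555 and 0.302) and with DESeq2 (adjusted p = 0.134) and with library sums thinned to the smallest (adjusted p = 0.221). SLC20A1, SLC20A2 and SLC9A7 fall outside the rule for named genes and were chosen after their values were seen, as were SLC38A1 and SLC30A7.

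**Figure D4:**
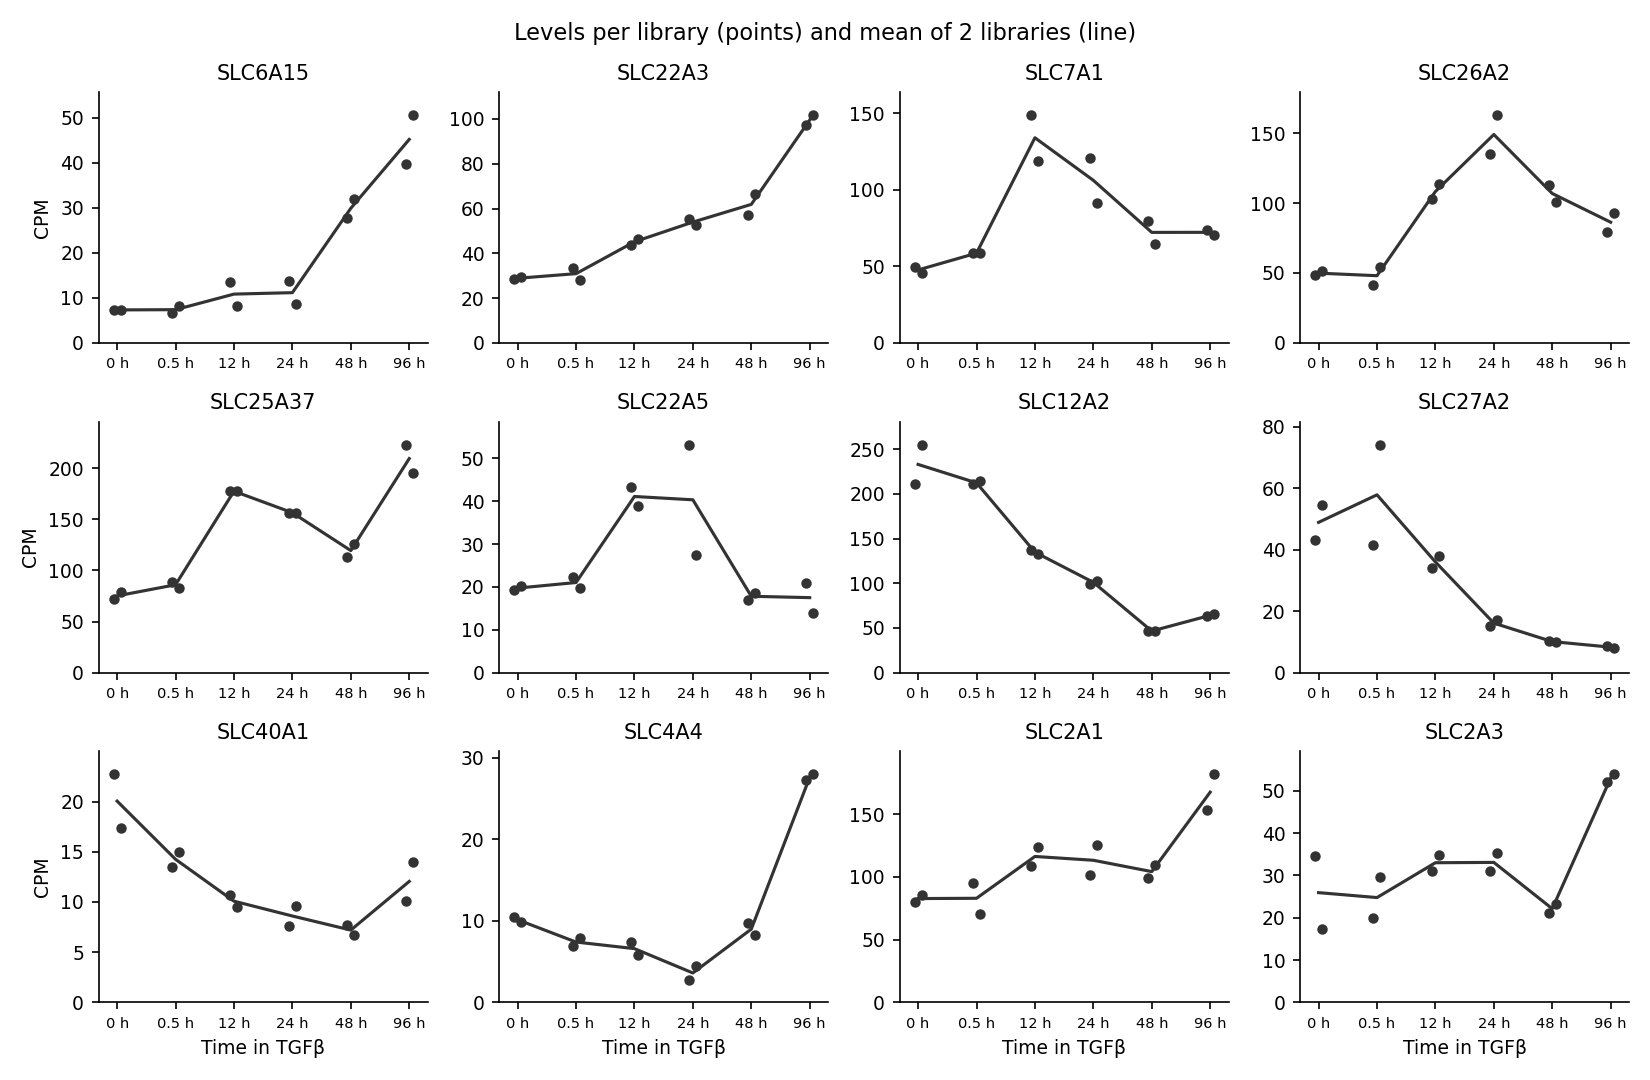
CPM (vertical axis of each panel, from 0) against time in TGFβ (horizontal) for 12 SLC genes, with 1 point per library and a line through the mean of the 2 libraries. SLC7A1, SLC26A2 and SLC22A5 peak at 12 or 24 h, SLC12A2 and SLC27A2 are lower from 24 h on, and SLC4A4 and SLC2A3 have both libraries of 96 h above every other library.

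Among metal transporters, several that carry zinc were higher at some time, while SLC30A6, SLC39A11 and the iron exporter were lower. SLC30A1 (ZnT1, chr1:211571568-211579161), the zinc exporter of the plasma membrane, had 43.8 and 40.5 CPM at 0 h, 66.7 and 60.4 after 0.5 h and 86.9 and 70.4 after 12 h of TGFβ. Later, SLC30A1 had 62.8 and 71.1 CPM after 24 h, 54.2 and 67.1 after 48 h and 63.01 and 57.3 after 96 h. The libraries of every treated time were above both of 0 h. The change passed at 12 h (log2 change 0.90 ± 0.18, edgeR adjusted p = 0.000768) and 24 h (log2 change 0.66 ± 0.18, edgeR adjusted p = 0.0129). It did not pass at 0.5 h (log2 change 0.59 ± 0.18, edgeR adjusted p = 0.414) or 96 h (log2 change 0.51 ± 0.20, edgeR adjusted p = 0.0618). The 24 h call was lost without 0 h replicate 1, 0 h replicate 2 or 24 h replicate 2 (log2 change between 0.59 and 0.72, adjusted p between 0.0581 and 0.107) and with library sums thinned to the smallest (adjusted p = 0.128). Its window (chr1:211579112-211579411, minus strand, RefSeq GRCh38.p14, 5′ to 3′) is shown because it holds 2 matches of the metal response element core TGCNCNC, the letters bound by the zinc sensor MTF1, in capitals, both on the other strand.
SLC30A1: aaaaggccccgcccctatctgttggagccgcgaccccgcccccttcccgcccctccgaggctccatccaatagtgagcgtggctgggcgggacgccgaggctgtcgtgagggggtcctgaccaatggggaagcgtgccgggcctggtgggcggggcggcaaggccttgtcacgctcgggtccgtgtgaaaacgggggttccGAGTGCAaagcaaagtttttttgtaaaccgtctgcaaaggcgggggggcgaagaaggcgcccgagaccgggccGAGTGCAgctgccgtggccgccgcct
The matches start 49 bases before and at base 25 after the start site. The core is short: 57.4% of the 94 SLC windows and 55.9% of all windows hold it on either strand, so its presence sets no gene apart.

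Of the zinc-buffering metallothioneins, whose genes also carry such elements, MT2A had 2966 and 2989 CPM at 96 h, against 312 and 233 CPM at 0 h. Its rise passed at 12 h (log2 change 2.04 ± 0.18, edgeR adjusted p = 9.38e-09) and 96 h (log2 change 3.45 ± 0.19, edgeR adjusted p = 1.22e-12). Of 11 tested genes of the metallothionein and iron list, 3 were higher and 1 lower at 12 h, beside 14.3% of all genes called. At 96 h 5 were higher and 1 lower (median log2 change 0.94, against 0.02 for all genes tested), beside 23.7% of all genes. Of the Golgi zinc transporters, SLC30A7 had 45.1 and 44.1 CPM at 12 h and 29.3 and 25.5 at 0 h (log2 change 0.70 ± 0.18, edgeR adjusted p = 0.00919). The SLC30A7 call at 12 h was lost without 0 h replicate 2 or 12 h replicate 1 (log2 change between 0.60 and 0.68, adjusted p between 0.0703 and 0.102). SLC30A6 had 27.8 and 24.2 CPM at 48 h and 46.00 and 35.3 at 0 h (log2 change -0.64 ± 0.20, edgeR adjusted p = 0.0295). With stricter limits on wells this value turned round (log2 change 0.16, adjusted p = 0.924). The SLC30A6 call at 48 h was lost without 0 h replicate 1, 48 h replicate 1 or 48 h replicate 2 (log2 change between -0.75 and -0.44, adjusted p between 0.0606 and 0.285) and with DESeq2 (adjusted p = 0.0828) and with library sums thinned to the smallest (adjusted p = 0.0578). SLC39A14 (ZIP14), an importer of zinc, manganese and non-transferrin iron, had 129 and 142 CPM at 24 h and 92.3 and 61.96 at 0 h (log2 change 0.81 ± 0.17, edgeR adjusted p = 0.00134). The SLC39A14 call at 24 h was lost without 0 h replicate 2 (log2 change 0.54, adjusted p = 0.069), and its 96 h libraries (107 and 97.9 CPM) were above those of 0 h without passing (log2 change 0.41 ± 0.18, edgeR adjusted p = 0.107). The zinc importer SLC39A10 (ZIP10) had 80.9 and 88.5 CPM at 96 h and 48.7 and 41.4 at 0 h (log2 change 0.91 ± 0.19, edgeR adjusted p = 0.001).

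SLC40A1 (ferroportin), the only known exporter of cellular iron, fell to 7.69 and 6.71 CPM at 48 h, against 22.7 and 17.4 at 0 h (log2 change -1.46 ± 0.29, edgeR adjusted p = 0.000739). It was also lower at 12 and 24 h and did not pass at 96 h (10.1 and 13.98 CPM, log2 change -0.72 ± 0.30, edgeR adjusted p = 0.0877). The 12 h call was lost without 0 h replicate 1 or 12 h replicate 2 (log2 change between -0.88 and -0.78, adjusted p between 0.113 and 0.148) and with DESeq2 (adjusted p = 0.0632) and with library sums thinned to the smallest (adjusted p = 0.0854), and the 24 h call without 0 h replicate 1 or 24 h replicate 1 (log2 change between -1.06 and -1.04, adjusted p between 0.0552 and 0.0653). SLC48A1 (HRG1), a heme transporter, had 73.9 and 50.6 CPM at 96 h and 123 and 107 at 0 h (log2 change -0.90 ± 0.20, edgeR adjusted p = 0.00199). The SLC48A1 call at 96 h was lost without 96 h replicate 2 (log2 change -0.65, adjusted p = 0.0931). The magnesium transporter SLC41A2 was lower at 48 h alone, with 51.5 and 39.7 CPM, against 87.9 and 75.6 at 0 h (log2 change -0.83 ± 0.19, edgeR adjusted p = 0.00316). The SLC41A2 call at 48 h was lost without 48 h replicate 2 (log2 change -0.67, adjusted p = 0.0554). SLC39A13 (ZIP13) had 30.3 and 19.3 CPM at 96 h and 11.2 and 15.9 at 0 h (log2 change 0.86 ± 0.29, edgeR adjusted p = 0.031). The SLC39A13 call at 96 h was lost without 0 h replicate 1 or 96 h replicate 1 (log2 change between 0.50 and 0.61, adjusted p between 0.242 and 0.383) and with DESeq2 (adjusted p = 0.0791) and with library sums thinned to the smallest (adjusted p = 0.39). SLC39A11 (ZIP11) had 25.7 and 13.98 CPM at 96 h and 38.1 and 32.1 at 0 h (log2 change -0.85 ± 0.27, edgeR adjusted p = 0.0235). The SLC39A11 call at 96 h was lost without 0 h replicate 1 or 96 h replicate 2 (log2 change between -0.73 and -0.47, adjusted p between 0.134 and 0.369) and with library sums thinned to the smallest (adjusted p = 0.0884).

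Mitochondrial carriers (all SLC25A genes of the set) were the largest class and the one with the smallest share past the test over all times among classes with any. That share, 6 of 25, stands beside 28.2% of all genes tested, and the difference was not tested. At 96 h their share, 5 of 25, was the same as that of metal transporters, 4 of 20. SLC25A37 (mitoferrin-1), which brings iron into mitochondria for heme and iron-sulfur cluster synthesis, had 71.7 and 78.5 CPM at 0 h, 88.9 and 83.05 after 0.5 h and 178 and 177 after 12 h of TGFβ. Later, SLC25A37 had 157 and 156 CPM after 24 h, 113 and 126 after 48 h and 223 and 196 after 96 h. It was higher from 12 h on, with a trough at 48 h (log2 change 1.24 ± 0.15, edgeR adjusted p = 1.18e-06 at 12 h, log2 change 0.67 ± 0.15, edgeR adjusted p = 0.0025 at 48 h and log2 change 1.48 ± 0.15, edgeR adjusted p = 6.97e-08 at 96 h). The step from 48 to 96 h (log2 change 0.81 ± 0.15, edgeR adjusted p = 0.0057) was lost without 48 h replicate 1 or 96 h replicate 1 (log2 change between 0.71 and 0.73, adjusted p between 0.0733 and 0.122).

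The ADP and ATP carriers, which exchange the nucleotides across the inner membrane, were lower or did not pass. SLC25A5 (ANT2), the most abundant of the 110 genes, had 1011 and 1007 CPM at 96 h and 1466 and 1340.0 at 0 h (log2 change -0.48 ± 0.15, edgeR adjusted p = 0.0192). That call was lost without 0 h replicate 1, 96 h replicate 1 or 96 h replicate 2 (log2 change between -0.49 and -0.42, adjusted p between 0.101 and 0.115). SLC25A6 (ANT3) had 490.1 and 473 CPM at 96 h and 483 and 413 at 0 h (log2 change 0.10 ± 0.18, edgeR adjusted p = 0.736). SLC25A4 (ANT1) was lower at 48 h, with 34.1 and 29.9 CPM, against 58.9 and 51.8 at 0 h (log2 change -0.78 ± 0.19, edgeR adjusted p = 0.00391). SLC25A3, the phosphate carrier, had 872 and 828 CPM at 96 h and 917 and 804 at 0 h (log2 change -0.02 ± 0.14, edgeR adjusted p = 0.947). SLC25A3, SLC25A5 and SLC25A6 have close copies or pseudogenes in the genome, so their counts are uncertain. SLC25A22, a glutamate carrier, had 17.1 and 9.99 CPM at 96 h and 22.5 and 26.9 at 0 h (log2 change -0.88 ± 0.28, edgeR adjusted p = 0.0256). The SLC25A22 call at 96 h was lost without 0 h replicate 2 or 96 h replicate 2 (log2 change between -0.78 and -0.54, adjusted p between 0.105 and 0.335) and with DESeq2 (adjusted p = 0.0644) and with library sums thinned to the smallest (adjusted p = 0.347). SLC25A23, a calcium-regulated carrier of ATP and phosphate, had 23.3 and 27.3 CPM at 96 h and 15.1 and 14.2 at 0 h (log2 change 0.79 ± 0.26, edgeR adjusted p = 0.0285). The SLC25A23 call at 96 h was lost without 0 h replicate 1, 0 h replicate 2, 96 h replicate 1 or 96 h replicate 2 (log2 change between 0.66 and 0.89, adjusted p between 0.0645 and 0.228) and with DESeq2 (adjusted p = 0.109) and with library sums thinned to the smallest (adjusted p = 0.176).

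Of the 6 sugar transporters, both glucose transporters of the plasma membrane with high affinity were higher at 96 h. SLC2A1 (ENSG00000117394, chr1:42925353-42958893) had 79.7 and 85.7 CPM at 0 h, 95.2 and 70.6 after 0.5 h and 109 and 123 after 12 h of TGFβ. Later, SLC2A1 had 101 and 125 CPM after 24 h, 98.98 and 109 after 48 h and 153 and 182 after 96 h. Both libraries of 96 h were above all others, and the change passed at that time alone (log2 change 1.02 ± 0.18, edgeR adjusted p = 0.000107), with log2 change 0.49 ± 0.17, edgeR adjusted p = 0.0547 at 12 h. SLC2A3 (GLUT3) had 21.1 and 23.2 CPM at 48 h and 52.1 and 53.9 CPM at 96 h, against 34.5 and 17.4 at 0 h. It was higher at 96 h than at 0 h (log2 change 1.03 ± 0.26, edgeR adjusted p = 0.00594) and than at 48 h (log2 change 1.27 ± 0.28, edgeR adjusted p = 0.0208). The call against 0 h was lost without 0 h replicate 2 or 96 h replicate 2 (log2 change between 0.59 and 0.99, adjusted p between 0.0618 and 0.121), and that against 48 h without 48 h replicate 1, 48 h replicate 2, 96 h replicate 1 or 96 h replicate 2 (log2 change between 1.19 and 1.32, adjusted p between 0.0564 and 0.207). Of 16 tested glycolysis genes, 0 were higher and 1 was lower at 96 h (median log2 change 0.35, with 0.02 over all genes tested), beside 23.7% of all genes called. ENO1, enolase, was the one that fell (log2 change -0.55 ± 0.17, edgeR adjusted p = 0.0186). The ENO1 call was lost without 0 h replicate 1, 96 h replicate 1 or 96 h replicate 2 (log2 change between -0.57 and -0.53, adjusted p between 0.0892 and 0.121). LDHA, lactate dehydrogenase A, had 155.6 and 291.6 CPM at 96 h and 69.5 and 88.3 CPM at 0 h without passing (log2 change 1.51 ± 0.46, edgeR adjusted p = 0.0532). The standard errors of LDHA, GAPDH (0.52) and PGAM1 (0.74) were wide beside that of ENO1, so changes of these genes were hard to call.

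Of the lactate transporters, SLC16A3 (MCT4) had 13.2 and 21.3 CPM at 96 h and 7.67 and 7.82 at 0 h (log2 change 1.17 ± 0.36, edgeR adjusted p = 0.0185). That call was lost without 0 h replicate 1, 0 h replicate 2 or 96 h replicate 2 (log2 change between 0.76 and 1.15, adjusted p between 0.0717 and 0.337) and with DESeq2 (adjusted p = 0.0557) and with library sums thinned to the smallest (adjusted p = 0.0802), and an opposite-strand gene covers 34.8% of its last exon. SLC16A1 (MCT1) had 15.6 and 18.6 CPM at 96 h and 9.86 and 9.27 at 0 h, where the libraries did not overlap and the test did not pass (log2 change 0.84 ± 0.33, edgeR adjusted p = 0.0686).

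Among transporters of organic cations, SLC22A3 (OCT3) rose at every time from 12 h on. It had 28.5 and 29.2 CPM at 0 h, 33.6 and 28.2 after 0.5 h and 43.8 and 46.5 after 12 h of TGFβ. Later, SLC22A3 had 55.3 and 52.6 CPM after 24 h, 57.2 and 66.5 after 48 h and 97.2 and 102 after 96 h. The change passed at 12 h (log2 change 0.65 ± 0.18, edgeR adjusted p = 0.0157), a call lost without 0 h replicate 1, 0 h replicate 2, 12 h replicate 1 or 12 h replicate 2 (log2 change between 0.63 and 0.69, adjusted p between 0.0627 and 0.0998) and with library sums thinned to the smallest (adjusted p = 0.19), and was largest at 96 h (log2 change 1.79 ± 0.18, edgeR adjusted p = 6.95e-08). SLC22A5 (OCTN2), the carnitine importer, was higher at 12 and 24 h, with 43.3 and 38.9 CPM after 12 h, 53.2 and 27.4 after 24 h and 21.00 and 13.98 after 96 h, against 19.2 and 20.3 at 0 h. The test gave log2 change 1.06 ± 0.25, edgeR adjusted p = 0.00416 at 12 h, and log2 change 1.06 ± 0.25, edgeR adjusted p = 0.00417 at 24 h. The 12 h call was lost without 0 h replicate 1 (log2 change 1.02, adjusted p = 0.0549) and the 24 h call without 0 h replicate 1 or 24 h replicate 1 (log2 change between 0.47 and 1.02, adjusted p between 0.0589 and 0.365) and with library sums thinned to the smallest (adjusted p = 0.156). SLC47A1 (MATE1), a proton-coupled exporter of organic cations, had 13.2 and 8.65 CPM at 96 h and 22.5 and 26.6 at 0 h (log2 change -1.18 ± 0.30, edgeR adjusted p = 0.00525). The SLC47A1 call at 96 h was lost without 96 h replicate 2 (log2 change -0.90, adjusted p = 0.123). SLC17A5 (sialin), the lysosomal exporter of sialic acid, had 40.4 and 33.3 CPM at 96 h and 22.2 and 15.1 at 0 h (log2 change 0.97 ± 0.25, edgeR adjusted p = 0.0054). The SLC17A5 call at 96 h was lost without 0 h replicate 2 or 96 h replicate 1 (log2 change between 0.70 and 0.82, adjusted p between 0.0822 and 0.0885).

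The deepest fall at 96 h was in the lipid class. SLC27A2 (FATP2, chr15:50182196-50236385), a fatty acid transporter and very long chain acyl-CoA synthetase, had 43.3 and 54.4 CPM at 0 h, 41.5 and 74.2 after 0.5 h and 34.1 and 37.8 after 12 h of TGFβ. Later, SLC27A2 had 15.1 and 17.05 CPM after 24 h, 10.4 and 9.800 after 48 h and 8.56 and 7.99 after 96 h. The libraries from 24 h on were below all of the earlier ones (log2 change -1.61 ± 0.25, edgeR adjusted p = 3.63e-05 at 24 h and log2 change -2.56 ± 0.33, edgeR adjusted p = 1.92e-06 at 96 h). SLC44A1, a choline transporter, had 80.6 and 72.7 CPM at 48 h and 48.5 and 49.2 at 0 h (log2 change 0.65 ± 0.17, edgeR adjusted p = 0.00891). The SLC44A1 call at 48 h was lost without 0 h replicate 1, 0 h replicate 2 or 48 h replicate 1 (log2 change between 0.57 and 0.64, adjusted p between 0.0574 and 0.0778) and with library sums thinned to the smallest (adjusted p = 0.0952). SLC27A4, a relative of SLC27A2, had 14.00 and 11.98 CPM at 96 h and 11.8 and 13.6 at 0 h (log2 change 0.03 ± 0.33, edgeR adjusted p = 0.964).

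Vitamin transporters moved in opposite directions. SLC5A6 (SMVT), the importer of biotin and pantothenate, had 33.4 and 27.3 CPM at 96 h and 59.96 and 55.01 at 0 h (log2 change -0.93 ± 0.23, edgeR adjusted p = 0.00368). The SLC5A6 call at 96 h was lost without 96 h replicate 2 (log2 change -0.79, adjusted p = 0.0837). SLC19A2 (THTR1), a thiamine importer, had 15.6 and 18.6 CPM at 96 h and 4.93 and 5.21 at 0 h (log2 change 1.75 ± 0.43, edgeR adjusted p = 0.00449). The SLC19A2 call at 96 h was lost without 96 h replicate 2 (log2 change 1.60, adjusted p = 0.0767). SLC29A1 (ENT1), the equilibrative nucleoside transporter, was higher at 12 h, with 122 and 87.7 CPM, against 73.1 and 60.5 at 0 h (log2 change 0.65 ± 0.21, edgeR adjusted p = 0.0471). The SLC29A1 call at 12 h was lost without 0 h replicate 1, 0 h replicate 2, 0.5 h replicate 1, 0.5 h replicate 2, 12 h replicate 1, 96 h replicate 1 or 96 h replicate 2 (log2 change between 0.39 and 0.79, adjusted p between 0.0545 and 0.435) and with DESeq2 (adjusted p = 0.091) and with library sums thinned to the smallest (adjusted p = 0.124).

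In the class without a shared substrate, SLC22A17 (a lipocalin receptor) had 15.05 and 11.9 CPM at 48 h and 15.6 and 31.3 CPM at 96 h, against 4.11 and 5.79 at 0 h (log2 change 2.26 ± 0.38, edgeR adjusted p = 7.31e-05 at 96 h). Without its 96 h libraries SLC22A17 averaged 7.51 CPM, so that its rise and its place among the 110 genes rest on the same values. SLC49A4, a transporter of the lysosomal membrane, had 53.7 and 60.6 CPM at 96 h and 19.7 and 18.2 at 0 h (log2 change 1.59 ± 0.22, edgeR adjusted p = 7.58e-06). Both were called at 48 h as well, and SLC22A17 at 48 h was lost without 0 h replicate 1 or 48 h replicate 1 (log2 change between 1.22 and 1.25, adjusted p between 0.085 and 0.0994). The 5 nucleotide sugar transporters of the Golgi had no call, with log2 changes at 96 h between -0.60 and 0.16. Of the 3 genes that are not transporters, SLC9A3R1 (NHERF1), the apical scaffold that anchors transporters to ezrin, had 21.00 and 20.6 CPM at 96 h and 60.8 and 76.4 at 0 h (log2 change -1.72 ± 0.27, edgeR adjusted p = 4.21e-05). SLC4A1AP and SLC2A4RG did not pass at any time.

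The library sums were also read cell by cell. Kept cells with at least 12000 UMIs were thinned to that number, and cells with fewer were left out. In 48 h replicate 2 this used 105 of 149 kept cells. Among these thinned cells, SLC7A11 had at least 1 UMI in 54.6 ± 5.82% at 96 h and 90.2 ± 0.354% at 0 h (mean ± SD, n = 2). SLC12A2 had one in 40.2 ± 0.502% at 96 h and 81.7 ± 2.404% at 0 h, and SLC27A2 in 8.18 ± 0.6696% and 36.8 ± 6.29%. The genes that rose in the sums had a UMI in a larger share of cells at 96 h. SLC6A15 had a UMI in 37.1 ± 4.14% of cells at 96 h and 7.01 ± 0.861% at 0 h. SLC22A3 had one in 62.1 ± 4.56% and 25.6 ± 2.18%, and SLC2A1 in 76.8 ± 3.83% and 54.3 ± 2.99%. Without thinning and over all kept cells, the shares at 96 h and 0 h were 74.05 ± 5.28% and 97.1 ± 0.177% for SLC7A11, 58.7 ± 3.44% and 92.5 ± 0.354% for SLC12A2, 17.1 ± 2.05% and 55.5 ± 5.84% for SLC27A2. For the genes that rose they were 60.7 ± 4.702% and 12.7 ± 0.778% for SLC6A15, 80.9 ± 6.102% and 40.95 ± 0.877% for SLC22A3, and 89.6 ± 3.64% and 71.5 ± 0.297% for SLC2A1. As all cells are of 1 line, the background was taken from wells with under 1000 genes, which held a median of 496 to 1312 UMIs per library. The share of them with a UMI at 96 h and 0 h was 7.41 ± 3.66% and 25.1 ± 2.61% for SLC7A11, 6.69 ± 1.27% and 31.05 ± 6.91% for SLC12A2, 0.172 ± 0.244% and 8.34 ± 7.68% for SLC27A2. It was 3.53 ± 1.35% and 1.18 ± 0.0247% for SLC6A15, 6.87 ± 1.99% and 2.36 ± 0.0488% for SLC22A3, and 10.4 ± 2.396% and 5.91 ± 0.957% for SLC2A1. These wells hold far fewer UMIs than the thinned cells, and their shares are not comparable with those of cells at 12000 UMIs. With 2 libraries against 2, an exact permutation test cannot go below 0.333, so no p is given for shares.

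**Figure D5:**
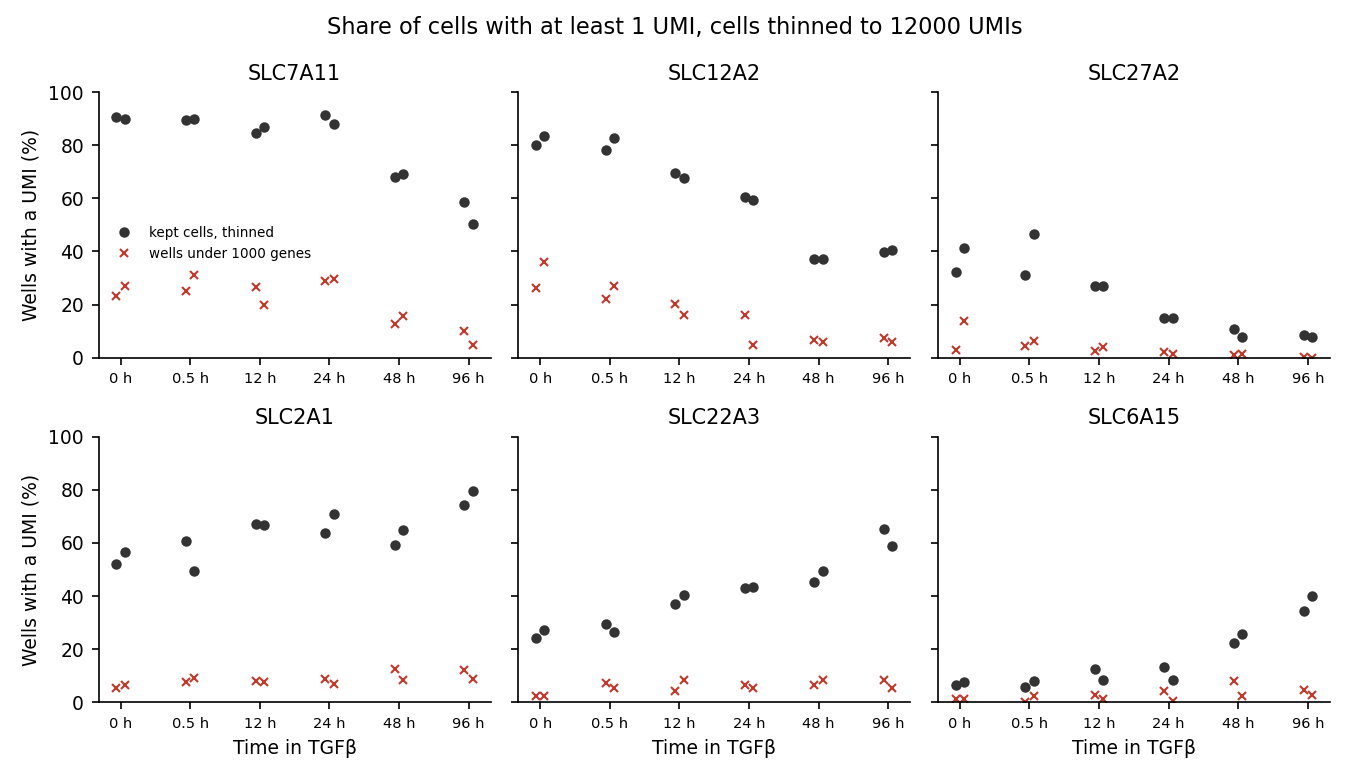
The share of wells with at least 1 UMI of each gene (vertical axis, %) against time in TGFβ (horizontal), with filled points for kept cells thinned to 12000 UMIs and crosses for wells under 1000 genes, 1 of each per library. Kept cells with under 12000 UMIs are left out. SLC7A11 has a UMI in 68.6 ± 0.841% of cells at 48 h and 54.6 ± 5.82% at 96 h, and SLC6A15 in 24.1 ± 2.25% and 37.1 ± 4.14% (mean ± SD).

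Promoter windows were searched for 6 motifs on both strands in the 94 of 110 genes that matched a RefSeq window by symbol. The hypoxia response element core ACGTG, which also lies inside the E-box CACGTG, was in 29.8% of SLC windows and 21.4% of all windows, in 6 of the 16 matched genes that were higher at 96 h and in 1 of the 11 that were lower. The antioxidant response element core TGACNNNGC was in 20.2% of SLC windows and 13.3% of all, the AP-1 site TGANTCA in 4.26% and 7.71%, and the SMAD palindrome GTCTAGAC in 0 SLC windows and 0.202% of all. SLC26A2 and SLC7A5 each held 2 matches of ACGTG, as did other SLC genes such as SLC1A4 and SLC20A1. A single CACGTG gives 2 matches, since both strands were searched. These shares describe letters in windows of 300 bases and were not tested.

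At the limit of 10 CPM, the genes just inside were SLC25A30 at a mean of 10.4 CPM, SLC16A3 at 10.3 CPM and SLC22A17 at 10.2 CPM, and those just outside included SLC66A2 at 9.87 CPM and SLC16A5 at 9.67 CPM. A limit of 5 CPM would have taken 132 genes and one of 20 CPM 72. Without the time at which each was highest, 5 of the 110 genes averaged under 10 CPM. These were SLC22A17, SLC16A3 and SLC4A4, highest and called higher at 96 h, SLC25A30, highest at 48 h, and SLC29A2, highest at 0.5 h. The 96 h rises of the first 3 are a description of genes that entered the set through that time. SLC6A15 was high at both 48 and 96 h, so leaving out 1 time does not show how far it entered through both.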

How the data were processed

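Single A549 cells were read by CEL-Seq2. Per the labels and the study's methods, the authors trimmed reads with Trim Galore, mapped them to GRCh38 with HISAT2 (version 2.2.1), counted them per gene with featureCounts and removed duplicate UMIs with UMI-tools, and the submitters' processing notes give version 0.6.7 of Trim Galore and 2.0.1 of featureCounts. The strand setting is not given in the sources used here, nor is the annotation release. The deposited table holds raw UMI counts for 29035 genes in 4608 wells. Columns were assigned to libraries by their names.

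Following the study's limits, a well was kept if it held 100 to 40000 UMIs and 2000 to 7000 genes and no more than 35% of its UMIs were mitochondrial, and 1871 wells remained, which is not the number of cells the study states. Doublets were not removed beyond the upper limits. For each library, the counts of its kept cells were added up gene by gene, and protein-coding genes were used. Sums were fitted with edgeR 4.0.16 (R 4.3.3, limma 3.58.1; TMM, filterByExpr, quasi-likelihood F test, 1 coefficient per time, all 12 libraries) on 10465 genes, with Benjamini-Hochberg adjustment. The biological coefficient of variation was 0.129.

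Members and gene lists were chosen with earlier results of these data known. The substrate class of each gene was assigned by hand. Named genes were a panel of 12, the genes past the threshold with non-overlapping libraries that changed most (up to 10 each way at 12 and 96 h, 5 elsewhere), up to 3 per class with the lowest p over all times, the 5 most abundant that did not pass over time, and the 3 on each side of the 10 CPM limit. Alternatives were DESeq2 1.42.0, its size factors in edgeR, no filter on low counts, thinned sums, stricter limits on wells (at least 3000 genes, at most 20% mitochondrial UMIs), the replicate number as a block, each library left out in turn, and other CPM limits. Shares of cells used kept cells with at least 12000 UMIs, thinned to 12000, and left out cells with fewer. Promoter windows were read from RefSeq (GRCh38.p14). Values of some genes are not reported here.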

Additional observations from a re-analysis of the deposited data

How the results depend on the processing

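Counts of SLC genes passing against 0 h with stricter limits on wells were 3, 2, 5 and 8 at 12, 24, 48 and 96 h, with 0 from 24 to 48 h, 1 from 48 to 96 h and 12 over all times. In that setting only 61 of the 110 genes were tested, and 6 to 58 cells were left in a library. DESeq2 called 13 genes at 12 h, library sums thinned to the smallest gave 7 from 24 to 48 h, and no filter on low counts gave 1 from 12 to 24 h and 5 from 48 to 96 h. The fit with the replicate number as a block called 25, 27, 35 and 40 genes against 0 h at 12, 24, 48 and 96 h, 1 from 12 to 24 h, 18 from 24 to 48 h, 8 from 48 to 96 h and 58 over all times, kept the 77 calls made for named genes and added 4. The numbers were not taken as pairing the samples, since nothing says that a number marks a shared culture or day and not every pair of times correlated over 0.1. Deviations of same-numbered libraries from their group means correlated at 0.14 to 0.275 in the 6 pairs among 0, 12, 24 and 48 h and at -0.0926 to 0.087 in pairs with 0.5 or 96 h, and were positive in 10 of the 15 pairs. With single libraries left out, the counts were 11 to 23 at 12 h, 12 to 20 at 24 h, 18 to 31 at 48 h, 17 to 37 at 96 h, 5 to 15 from 24 to 48 h, 0 to 4 from 48 to 96 h, 37 to 52 over all times, and 0 at 0.5 h and from 12 to 24 h. Of the 77 named calls, 34 were kept with each library left out in turn, 64 with DESeq2, 77 with its size factors and 77 without the filter.

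Of the changes chosen by the rule for named genes, those that turned round lay between -0.13 and 0.85 on the log2 scale as reported. Outside that rule, the fall of SLC30A6 at 48 h also turned round with stricter limits on wells (log2 change 0.16, adjusted p = 0.924). With stricter limits on wells the log2 changes at 12 h were 0.023 for SLC7A11, -0.043 for SLC3A2, -0.35 for SLC7A5, -0.085 for SLC1A5 and -1.76 for SLC2A3, and at 96 h -0.37 for SLC7A5 and 0.73 for SLC38A2. With single libraries left out, the ranges were -0.21 (without 0 h replicate 2) to 0.31 for SLC7A5 at 96 h, -0.21 (without 0 h replicate 2) to 0.25 for SLC38A2 at 12 h, -0.34 to 0.22 for SLC38A2 at 96 h (0.21 without 0 h replicate 1 and 0.22 without 96 h replicate 2), and -0.071 (without 0 h replicate 2) to 0.92 for SLC2A3 at 12 h. The causes were not tested. At the depth of the smallest library 1 UMI is worth 0.791 CPM, which limits what can be seen for genes near 10 CPM.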

Other observations

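Of the 181 SLC genes under a mean of 10 CPM, 53 were tested, and 8 were higher and 4 lower at 96 h than at 0 h, where 23.7% of all genes tested passed with edgeR. The ones named here were chosen after their values were seen. The filter on low counts keeps a gene that is high at 1 time alone, so some of the 53 may have been tested only through that time. SLC36A1 (PAT1), a proton-coupled amino acid exporter of lysosomes, had 21.00 and 21.3 CPM at 96 h and 6.02 and 5.79 at 0 h (log2 change 1.83 ± 0.34, edgeR adjusted p = 0.00025). SLC6A17, a relative of SLC6A15, had 10.9 and 5.99 CPM at 96 h and 0.548 and 1.45 at 0 h (log2 change 3.02 ± 0.64). At 0 h SLC6A17 was near the floor and could pass the filter on low counts only through treated times, so no p is given for it. Both genes had non-overlapping libraries at these times.

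SLC2A5 (GLUT5), the fructose transporter, had 4.01 and 2.06 CPM at 48 h and 3.89 and 2.66 CPM at 96 h, against 0 UMIs in both libraries of 0 h, so no fold is given. SLC16A6 (MCT7) had 0.778 and 1.997 CPM at 96 h and 7.67 and 8.69 at 0 h (log2 change -2.48 ± 0.66, edgeR adjusted p = 0.00781), and 0 UMIs in both libraries of 48 h. Its call at 96 h was lost without 96 h replicate 1 (log2 change -2.02, adjusted p = 0.0928).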
